A study of Mus musculus with 8 samples.

Results

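The nuclear genes of the respiratory chain and of the mitochondrial ATP synthase were examined in monocyte-derived dendritic cells (moDCs) of the inflamed mouse central nervous system. Members were chosen by gene symbol alone: the Nduf genes of complex I, Sdha to Sdhd of complex II, the Uqcr genes of complex III, the nuclear Cox genes of complex IV and the Atp5 genes of complex V. The rule found 75 of the 12256 genes measured, with 36 in complex I, 4 in complex II, 8 in complex III, 11 in complex IV and 16 in complex V. Not every symbol it takes is that of a subunit of the complex named: Atp5s and Atp5sl are not subunits of the ATP synthase, Cox7a2l is a factor that joins complexes III and IV, and Ndufa4 is now counted with complex IV.

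Every mouse was C57Bl/6 and had experimental autoimmune encephalomyelitis (EAE), a model of multiple sclerosis in which immunization with a myelin peptide turns T cells against the central nervous system. One group was given 1000000 neural precursor cells (NPC group) in 10 µl of PBS at the peak of disease, and the other 10 µl of PBS only (PBS group). At 7 days after treatment moDCs were sorted by surface proteins out of hindbrain and spinal cord and their RNA was sequenced. There were 4 libraries a group, NPC A to D and PBS 1 to 4, each from a pool of 4 to 7 mice, so that p-values measure the spread between pools and not between single animals. There was no group without EAE and no group given other cells.

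Complexes I and II pass electrons from NADH and succinate to coenzyme Q, complex III passes them on to cytochrome c and complex IV to oxygen, and complex V uses the resulting proton gradient to make ATP. Most subunits are encoded in the nucleus and imported, while a few core subunits of complexes I, III, IV and V are encoded by mitochondrial DNA, so that each of these complexes needs both genomes. Myeloid cells such as dendritic cells are known to alter their balance of glycolysis and respiration when they are activated.

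The promoters of many nuclear respiratory genes are known to carry sites for NRF-1 and for the ETS factor GABP, and the stretches below show such letters in members described in the results. Sequences are from RefSeq on GRCm38.p6, read 5′ to 3′ on the gene's own strand, which is the minus strand for all 5. Capitals mark the NRF-1 motif in Atp5k, which reads the same on both strands, and in the other 4 the ETS motif CCGGAAG as its reverse complement CTTCCGG. For Sdhd and Uqcrh the 250 bases before the RefSeq start site are shown. For Atp5k, Cox6b1 and Atp5h, where the GENCODE gene begins 37 to 49 bases further upstream, 30 bases around the match are shown.
Sdhd, chr9:50603850-50604099: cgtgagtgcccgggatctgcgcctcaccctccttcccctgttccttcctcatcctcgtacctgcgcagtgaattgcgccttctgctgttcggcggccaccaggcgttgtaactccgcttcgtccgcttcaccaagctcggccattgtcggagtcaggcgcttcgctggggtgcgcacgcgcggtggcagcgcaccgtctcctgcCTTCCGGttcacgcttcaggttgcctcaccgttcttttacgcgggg
Uqcrh, chr4:116075071-116075320: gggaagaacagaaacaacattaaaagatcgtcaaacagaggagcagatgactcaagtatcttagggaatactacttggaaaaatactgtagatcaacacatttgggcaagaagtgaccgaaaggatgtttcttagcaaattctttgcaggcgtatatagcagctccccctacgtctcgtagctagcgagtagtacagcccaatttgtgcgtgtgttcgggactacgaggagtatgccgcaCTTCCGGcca
Atp5k, chr5:108434430-108434459: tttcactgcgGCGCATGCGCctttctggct
Cox6b1, chr7:30626124-30626153: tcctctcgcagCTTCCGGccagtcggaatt
Atp5h, chr11:115419939-115419968: caaggagagaaCTTCCGGcaactctcttcc
The match begins 46 bases before the RefSeq start in Sdhd, 10 in Uqcrh, 50 in Atp5k, 28 in Cox6b1 and 38 in Atp5h. By the GENCODE start, the matches of Cox6b1 and Atp5h lie inside the gene, as does that of Atp5k but for its outermost base. How often each motif occurs over all members is given after the fold changes.

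The libraries differed in depth together with treatment. They held 2653818 to 7003542 reads in the NPC group and 7702189 to 21068166 in the PBS group. The members took 0.309 to 0.416% of all reads in NPC libraries against 0.410 to 0.4995% in PBS libraries, highest in PBS 3. With mitochondrially encoded reads left out, their share was 0.444 to 0.629% in NPC and 0.614 to 0.684% in PBS libraries. PBS 3 was then the lowest PBS library, and NPC B lay above it. Of the 12 genes that identify the sorted cells, 6 were higher and 6 lower in NPC libraries, and their median fold change on the log2 scale was 0.00. All 12 were measured, and none was at 0 reads in a library. The summed level of 16 immediate-early genes, which respond within minutes to handling and stimulation, was 3454 in NPC A and 3167 in PBS 1 (per 1000000 reads), against 9834 to 12930 in the other 6 libraries. Levels below are the authors' log2 normalised expression, on which 1 unit is a doubling, and a fold change is NPC minus PBS on that scale.

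No member passed the test, but most stood a little lower in the NPC group. Of the 75 members, 68 were lower in NPC libraries and 7 higher, beside 47.5% lower among all genes. The median log2 fold change of the members was -0.21, a ratio of 0.865, beside 0.02 over all genes. With limma, adjusted by Benjamini-Hochberg over 12256 genes, 0% of genes were called at an adjusted p under 0.05, and the smallest adjusted p of a member was 0.382. With voom weights on the recovered reads limma also called 0 genes. At an unadjusted p under 0.05 there were 24 members lower, where 5.32% of all genes were, and 0 members higher, where 6% of all genes were. Every NPC library lay below every PBS library for 10 members, against 3.25% of all genes, and above for 1 member, against 3.53%. Members share libraries and vary together, so these counts are a description and carry no test. The differences were small as well as uncertain, since the 95% interval of the fold change excluded a 2-fold difference either way for 71 members and a 1.5-fold difference for 41. In RNA from bulk sorted cells, fewer cells with a high level and less of the RNA in each cell cannot be told apart.

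**Figure D1:**
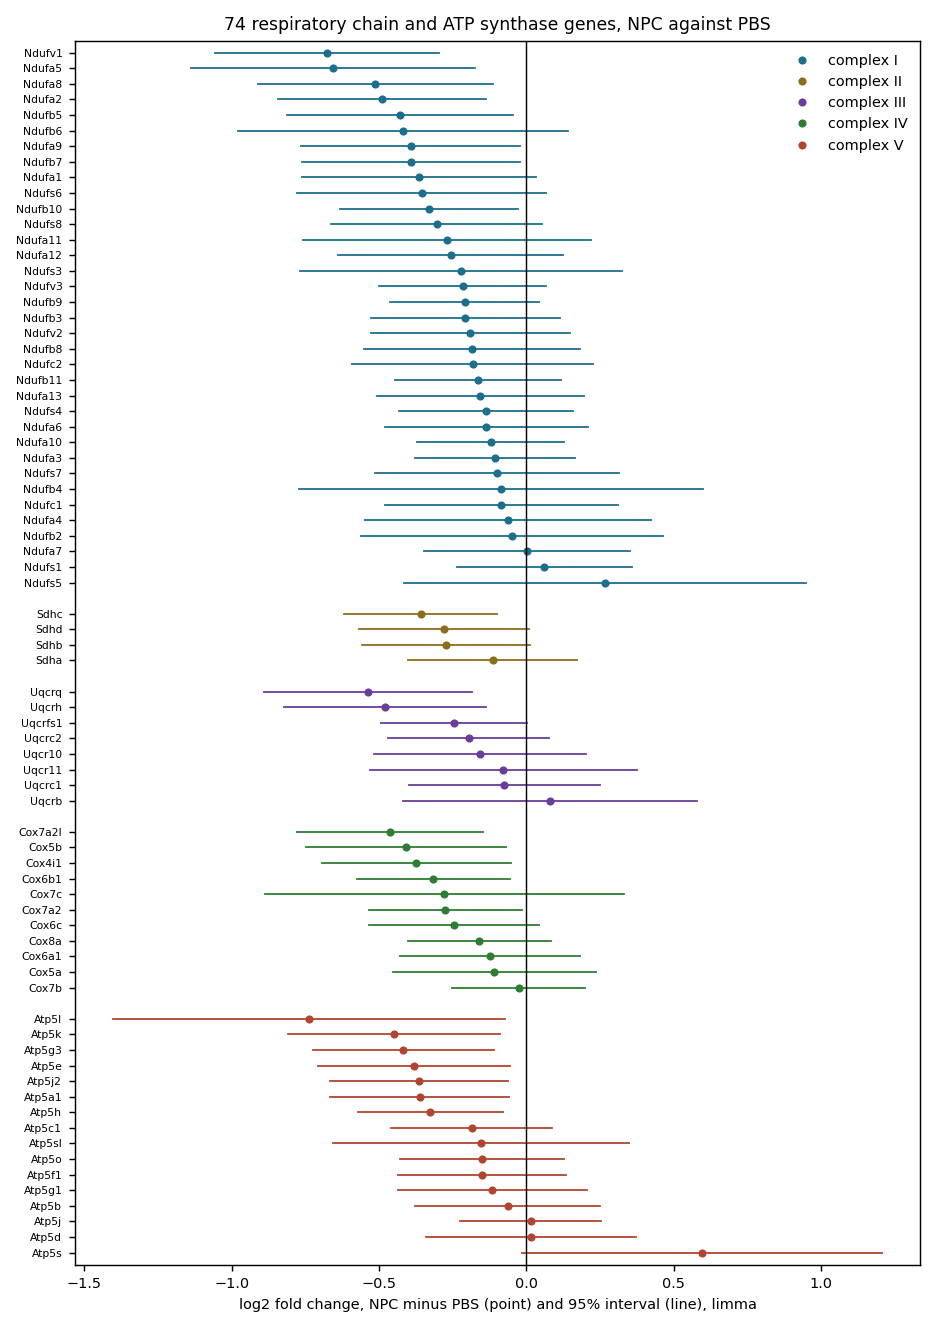
Log2 fold change of 74 members, NPC minus PBS, with its 95% interval from limma (4 libraries a group), grouped by complex and ordered within it. Of the 74 points 67 lie below 0, 23 intervals lie wholly below 0 and none wholly above it.

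Complex I, the largest complex and the entry of electrons from NADH, had 33 of 36 members lower (median log2 fold change -0.21). At an unadjusted p under 0.05 there were 9 members lower (25%), where 5.32% of all genes were. Ndufv1 encodes the core subunit that binds NADH. Its level was 4.34, 3.91, 3.78 and 3.53 in NPC A to D, and 4.74, 4.55, 4.61 and 4.37 in PBS 1 to 4. The groups did not overlap, although NPC A lay just under PBS 4, and NPC D stood lowest. The fold change of -0.68 (SE 0.18, unadjusted p = 0.00214) had an adjusted p of 0.382 in limma.

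Among the accessory subunits, which surround the core and take no part in electron transfer, 26 of 28 were lower, with a median of -0.21. Ndufa5 was at 3.004 ± 0.39 in the NPC group and 3.66 ± 0.30 in the PBS group, a log2 fold change of -0.66 (SE 0.22), and Ndufa2 at 4.68 ± 0.31 and 5.17 ± 0.17, a fold change of -0.49 (SE 0.16; SD, n = 4 each). In both genes NPC and PBS libraries overlapped. Ndufa1 had the highest level per kilobase of transcript in complex I, 6.41 on the log2 scale, and NPC B alone lay above every PBS library in it. Its levels were 4.98, 5.56, 4.81 and 4.54 in NPC A to D and 5.33, 5.42, 5.26 and 5.33 in PBS 1 to 4. The core was not uniform. Ndufs1, the core subunit with the most iron-sulphur clusters, was at 5.17, 5.10, 4.86 and 4.67 in NPC A to D and 4.82, 4.95, 4.81 and 4.97 in PBS 1 to 4. NPC A and B stood above all PBS libraries and NPC D below them, and the fold change was 0.06 (SE 0.14).

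Complex II, which also works in the tricarboxylic acid cycle, was lower in all 4 members, with a median of -0.28. Sdhc, which encodes one of its membrane anchors, was at 6.47, 6.28, 6.08 and 6.06 in NPC A to D and at 6.66, 6.59, 6.48 and 6.58 in PBS 1 to 4. NPC A lay just under PBS 3 and the other NPC libraries well under it, a fold change of -0.36 (SE 0.12, adjusted p = 0.390 in limma). The second anchor, Sdhd, was at 6.78 ± 0.24 in the NPC group and 7.06 ± 0.12 in the PBS group, with overlap. The catalytic subunits Sdha and Sdhb, given after their values were seen, had fold changes of -0.11 (SE 0.13) and -0.27 (SE 0.13).

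In complex III 7 of 8 members were lower, with a median of -0.18, and the small subunits Uqcrq and Uqcrh stood apart in size. Uqcrq was at 4.84, 5.22, 5.07 and 4.46 in NPC A to D and at 5.61, 5.49, 5.32 and 5.31 in PBS 1 to 4. Uqcrh, the hinge protein beside cytochrome c1, was at 6.69, 6.76, 6.00 and 6.43 in NPC A to D and at 7.12, 6.98, 6.81 and 6.89 in PBS 1 to 4. Neither gene overlapped between groups, and the lowest library was NPC D for Uqcrq and NPC C for Uqcrh. Their fold changes were -0.54 (SE 0.16) and -0.48 (SE 0.16), with adjusted p of 0.382 and 0.390 in limma. The electron-carrying Rieske protein gene Uqcrfs1 was at 5.60 ± 0.12 in the NPC group and 5.85 ± 0.11 in the PBS group, with overlap. Uqcrb, another small subunit, differed in sign, with a fold change of 0.08 (SE 0.23).

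Complex IV, which reduces oxygen, was lower in all 11 members, with a median of -0.28. Of these, 5 (45.5%) were lower at an unadjusted p under 0.05, where 5.32% of all genes were. Cox4i1, the member of highest level per kilobase there (7.61), was at 7.07, 7.38, 6.88 and 6.67 in NPC A to D and 7.35, 7.54, 7.21 and 7.38 in PBS 1 to 4. NPC B sat among the PBS libraries and the other NPC libraries below them, and the fold change was -0.37 (SE 0.15). Cox6b1, a subunit on the side of the intermembrane space, was the member without overlap, at 6.05 ± 0.16 in the NPC group and 6.36 ± 0.13 in the PBS group. Of the pair Cox5a and Cox5b, distinct subunits on the matrix side, Cox5b had a fold change of -0.41 (SE 0.16) and Cox5a of -0.11 (SE 0.16), and the difference between them was not tested. Cox7a2l was at 7.30, 7.57, 6.99 and 6.93 in NPC A to D and 7.54, 7.80, 7.57 and 7.72 in PBS 1 to 4, a fold change of -0.46 (SE 0.15). Only NPC B reached the PBS range. The related Cox7a2 had a fold change of -0.28 (SE 0.12).

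Complex V had 13 of 16 members lower, with a median of -0.17. Of the 16, 7 (43.8%) were lower at an unadjusted p under 0.05, where 5.32% of all genes were. The 9 genes of the membrane part and the stalks had a median of -0.33, with 8 lower. In 4 of these 9 (44.4%) every NPC library lay below every PBS library, against 3.25% of all genes. The 5 genes of the catalytic head with its central stalk had a median of -0.18, with 4 lower. Atp5g3, 1 of the genes for the rotating c subunit, was at 6.82, 6.81, 6.71 and 6.36 in NPC A to D and 7.36, 7.10, 6.82 and 7.08 in PBS 1 to 4. NPC A and PBS 3 were equal to 2 decimals, with NPC A the lower. The fold change was -0.42 (SE 0.14), and that of Atp5g1, which encodes the same mature protein, was -0.12 (SE 0.15). Atp5h of the peripheral stalk was at 5.82 ± 0.16 in the NPC group and 6.14 ± 0.07 in the PBS group, and Atp5k of the membrane part at 5.003 ± 0.34 and 5.45 ± 0.17 (SD, n = 4 each). Neither overlapped. Atp5j2, the other member of the complex with every NPC library below every PBS library, had a fold change of -0.36 (SE 0.14) and was picked out after its values were seen.

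In that head the most abundant member per kilobase, Atp5b (8.12), showed little difference. It encodes the catalytic beta subunit and was at 8.91, 9.21, 9.04 and 8.94 in NPC A to D and 8.76, 9.27, 9.02 and 9.31 in PBS 1 to 4. The NPC libraries lay within the PBS range, and the fold change was -0.06 (SE 0.14, interval -0.38 to 0.25). Its partner Atp5a1, named after its values were seen, had a fold change of -0.36 (SE 0.14), and the central-stalk gene Atp5d one of 0.02 (SE 0.16). Atp5s, also named afterwards, was the member with every NPC library above every PBS library, at 1.65 ± 0.32 in the NPC group and 1.05 ± 0.28 in the PBS group. It had 6 to 17 reads in NPC and 20 to 44 in PBS libraries, and its fold change of 0.60 (SE 0.28) had an adjusted p of 0.455 in limma. In all, 4 members had under 10 reads in a library.

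**Figure D2:**
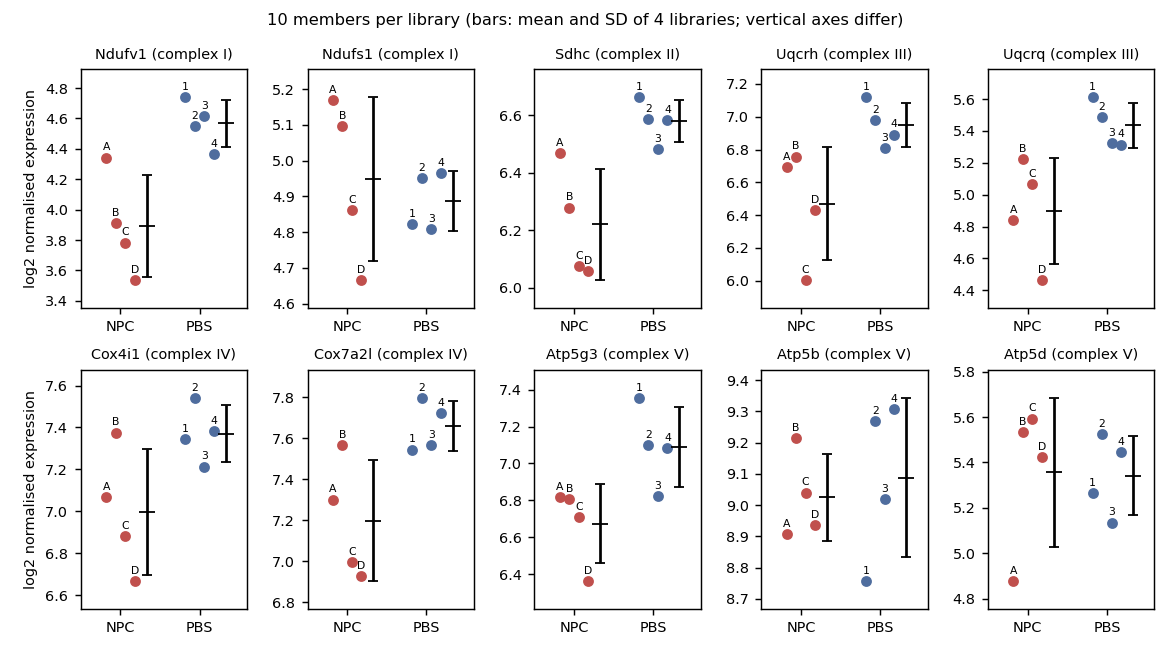
Log2 normalised expression of 10 members in each library (points, labelled by library; bars are the mean and SD of 4 libraries), NPC left and PBS right, each gene on its own vertical axis. NPC D is the lowest NPC library in 7 of the 10 panels, and Ndufs1, Atp5b and Atp5d overlap between groups where Ndufv1, Sdhc, Uqcrh, Uqcrq and Atp5g3 do not.

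NPC D contributed most to the lower levels. It was the lowest of the 8 libraries for 47 members (62.7%), against 16.4% of all genes, while PBS 1 was the highest for 33, against 16.1% of all genes. The members' mean level was 4.90, 4.97, 4.78 and 4.57 in NPC A to D and 5.13, 5.08, 4.92 and 5.01 in PBS 1 to 4. NPC B thus lay above PBS 3, and NPC C and D lay below all PBS libraries, as NPC A did by a narrow margin. Counted by member, 40 members in NPC A, 25 in NPC B, 44 in NPC C and 65 in NPC D (53.3, 33.3, 58.7 and 86.7%) lay below the lowest PBS library, where 26.4, 25.1, 25.6 and 28.3% of all genes did. Without NPC D the members' median was -0.16, with 64 lower. In that fit 11 members were lower at an unadjusted p under 0.05, where 3.61% of all genes were. The medians of complexes III and IV were then -0.10 and -0.17.

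**Figure D3:**
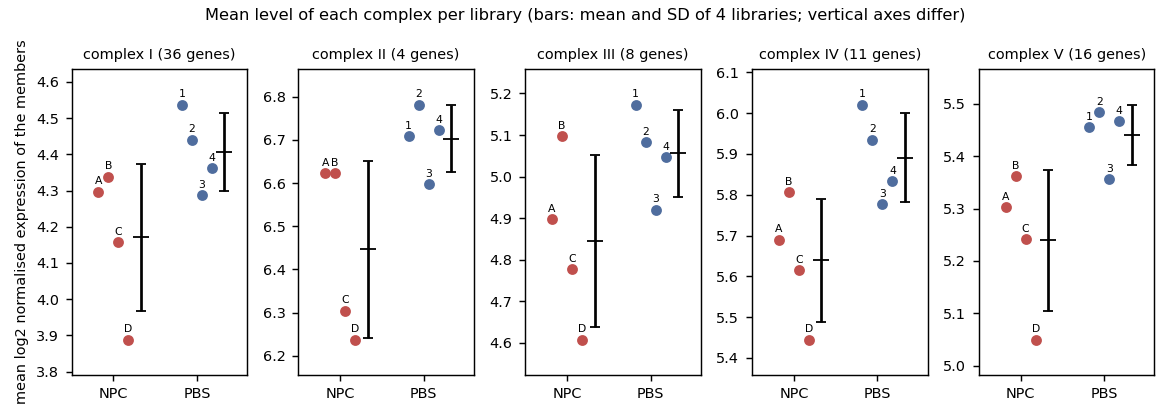
Mean log2 normalised expression of the members of each complex per library (points, labelled by library; bars are the mean and SD of 4 libraries), NPC left and PBS right, with a vertical axis for each complex. NPC D is the lowest library in all 5 complexes, and PBS 3 is the lowest PBS library in all 5.

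Other quantities were compared between the groups beside the members, and each sum of cell type markers overlapped between groups. The 12 T cell markers summed to 203 to 297 per 1000000 reads in NPC libraries and 196 to 216 in PBS libraries, highest in NPC D. In all, 10 of 12 were higher and none was at 0 reads. The largest part of that sum was Il7r, which was highest in NPC D at 7.42. The mean log2 level of the 12 was 3.43, 3.89, 3.26 and 3.44 in NPC A to D and 3.16 to 3.36 in PBS libraries. Every NPC library lay above every PBS library for 2 of the 12 (16.7%), against 3.53% of all genes. These were Cd4, with a log2 fold change of 0.62 (SE 0.19), and Cd3e, with 0.43 (SE 0.16). Their adjusted p were 0.382 and 0.390 in limma, and the other T cell markers overlapped between groups. The 8 microglia markers summed to 179 to 315 in NPC and 149 to 283 in PBS libraries, with 7 of 8 higher. The 7 measured neutrophil markers summed to 209 to 251 and 180 to 224, with 6 of 7 higher. With voom weights on the recovered reads 8 of 8 and 2 of 7 were higher. The neutrophil sum rests mostly on Csf3r, which was highest in NPC D at 7.40. The mean log2 level of the 7 neutrophil markers was lowest in NPC D, 2.15 against 3.07 to 4.09 in the other 7 libraries, with S100a9 at 2.94 there and at 4.83 to 5.93 elsewhere. The 3 measured B cell and plasma cell markers summed to 3.81 to 10.8 in NPC and 3.84 to 6.81 in PBS libraries, and the 5 measured oligodendrocyte markers to 63.3 to 102 and 70.7 to 94.6. Their part in the members' levels was not tested. For depth, reads thinned to equal depth in all libraries gave a members' median of -0.21 with 66 lower. Of the members 18 were lower at an unadjusted p under 0.05, where 4.56% of all genes were. Without NPC A and PBS 1 together the median was -0.24, with 65 lower. The members' transcripts were short, with a median of 809 bases against 2702 over all matched genes, and after a correction of each library for transcript length and GC content the median was -0.21, with 62 of 73 lower, beside -0.02 over all genes.

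Mitochondrially encoded subunits of the same complexes were mostly higher in NPC libraries, by an amount that rests in part on PBS 3. Of 13 listed, 7 were measured, and all 7 were higher (median log2 fold change 0.40), while none was called. Without PBS 3 the median was 0.23 with 6 of 7 higher, mt-Nd6 being at -0.20. Without NPC D it was 0.31 with 6 of 7 higher, and after the correction for length and GC content 0.17 with 6 of 7 higher. mt-Co1, the catalytic subunit of complex IV, was at 13.21 ± 0.23 in the NPC group and 12.79 ± 0.35 in the PBS group (SD, n = 4 each), and mt-Nd4 of complex I at 10.62 ± 0.31 and 10.21 ± 0.33. Their mean was 10.56, 10.79, 10.88 and 11.12 in NPC A to D and 10.62, 10.58, 9.96 and 10.81 in PBS 1 to 4. The groups overlapped, NPC D was highest and PBS 3 lowest. The nuclear mean minus the mitochondrial mean was -5.66, -5.81, -6.09 and -6.55 in NPC A to D and -5.48, -5.50, -5.03 and -5.80 in PBS 1 to 4, so that NPC A lay within the PBS range and NPC B to D below it. Both means come from the same normalised library. In it, reads of all mitochondrially encoded transcripts made up 25.2 to 33.9% in NPC and 18.6 to 34.8% in PBS libraries. The 7 subunits were a small part of that share. They summed to 16251 to 22976 in NPC and 10909 to 19155 in PBS libraries, in the unit of the marker sums above. NPC C had the lowest NPC share but a higher subunit mean than NPC A and B, while PBS 3 was the lowest library in both. With all mitochondrially encoded reads left out of the library totals the members' median was -0.21. In that fit 11 members, against 24, were lower at an unadjusted p under 0.05. Among all genes 2.91%, against 5.32%, were lower at that threshold.

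**Figure D4:**
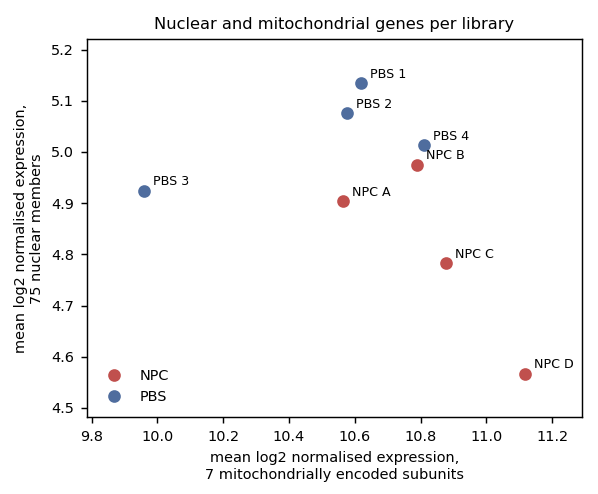
Mean log2 normalised expression of the 75 nuclear members (vertical) against that of the 7 measured mitochondrially encoded subunits (horizontal), 1 point per library, NPC and PBS in separate colours. NPC D has the lowest nuclear mean (4.57) and the highest mitochondrial mean (11.12), and PBS 3 the lowest mitochondrial mean (9.96).

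Neighbouring mitochondrial gene groups were nearer to the median of all genes, with 1 exception. Among genes of mitochondrial protein import 20 of 21 were lower, with a median of -0.19 and 1 at an unadjusted p under 0.05, Timm13, an intermembrane space chaperone, at 2.66 ± 0.30 in the NPC group and 3.17 ± 0.21 in the PBS group. Of 37 assembly factors 21 were lower, with a median of -0.05. At an unadjusted p under 0.05 there were 3, all lower: Coa3 and Cox18 for complex IV and Sdhaf1 for complex II. The share lower at that threshold was 8.11% of the assembly factors and 4.76% of the import genes, beside 5.32% of all genes. Cox18 had as few as 4 reads in a library and Sdhaf1 as few as 5. Among the 29 assembly factors with at least 10 reads in every library 14 were lower, with a median of 0.005. The 18 tricarboxylic acid cycle genes had a median of -0.03 with 12 lower. The 12 genes of coenzyme Q synthesis had one of -0.08 with 9 lower (5 without NPC D or without PBS 1). Of these Pdss1 was higher at an unadjusted p under 0.05. A mixed list of 14 other genes had a median of -0.01 with 7 lower. It holds subunits that the symbol rule leaves out together with carriers and enzymes that feed electrons to the chain. Cyc1, the cytochrome c1 of complex III that the symbol rule leaves out, was at 5.53 ± 0.26 in the NPC group and 5.97 ± 0.26 in the PBS group. The groups overlapped in it. Of those 14 genes it was the 1 at an unadjusted p under 0.05 and had the lowest fold change, -0.44. Ndufab1 of complex I and Usmg5 of complex V, named after their values were seen, are also subunits outside the rule. Their fold changes were -0.43 (SE 0.26) and -0.07 (SE 0.19), and the groups overlapped in both. Another 7 of the 14 were higher, up to 0.25 in Slc25a4, which encodes a carrier and not a subunit. The 14 regulators of mitochondrial biogenesis had a median of 0.00 with 7 lower. Among them Nrf1 had a fold change of -0.07 (SE 0.17) and Gabpa, which encodes the DNA-binding subunit of GABP, one of 0.02 (SE 0.15). No gene of these lists was called.

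Promoter windows of 250 bases before to 50 after the start were found for 64 members and searched on both strands, a match being a description of letters and not a bound site. The ETS motif CCGGAAG occurred in 16 (25%), against 21.3% of the 8382 genes of the table with a window, and the NRF-1 motif, spelled by the capitals in Atp5k above, in 4 (6.25%) against 2.54%. The YY1 motif AAGATGGC occurred in 11 (17.2%) against 5.76%, and the ERR motif CAAGGTCA in 4 (6.25%) against 1.26%. Of the 16 members with the ETS motif 15 were lower (median log2 fold change -0.31), and of the 48 without it 44 were lower, with a median of -0.16. The 4 members with the NRF-1 motif had a median of -0.20 and the 60 without it -0.19. For YY1 the medians were -0.15 in the 11 with the motif and -0.22 in the 53 without it, and for ERR -0.35 in 4 and -0.19 in 60. These medians were not tested against each other.

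Processed pseudogenes and other genes that share a member's sequence can draw reads away. In 46 of 73 members no stretch of 100 bases was shared, on either strand, with another GENCODE gene of any kind. Of these 46, 43 were lower (median log2 fold change -0.26). The 27 members with a shared stretch had a median of -0.20. In some of the 27, such as Cox4i1 and Cox5b, the other gene was not annotated as a pseudogene. Atp5l, the g subunit gene, shared 69.0% of its stretches. Its level of 1.02 ± 0.51 in the NPC group and 1.76 ± 0.23 in the PBS group, with 4 to 14 and 25 to 63 reads, is therefore uncertain.

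**Figure D5:**
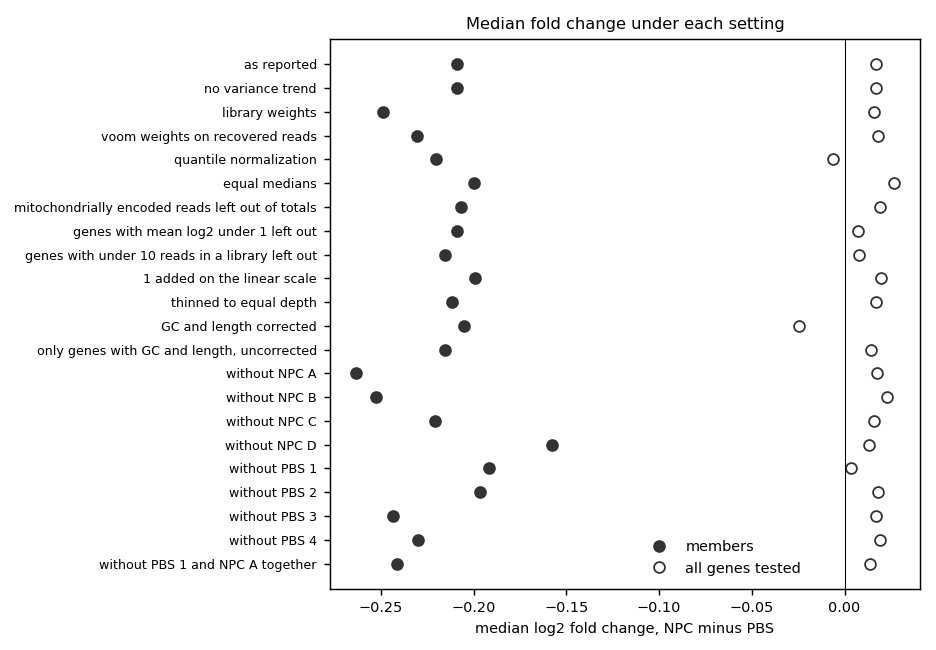
Median log2 fold change, NPC minus PBS, of the members (filled) and of all genes tested (open) as reported and under each of 21 alternative settings. The members' medians lie between -0.26 and -0.16 and those of all genes between -0.02 and 0.03.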

How the data were processed

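RNA of sorted moDCs was amplified with the Ovation V2 kit and sequenced as single reads, per the labels. Per the submitters' processing notes, the tools included Trimmomatic, STAR (2.3.0), HTSeq (0.5.3) and also limma, on build mm10. Neither annotation nor strand setting is given in the sources used here; reads of overlapping or antisense partners may be mixed. Values deposited by the authors are log2 normalised levels, not divided by length. Their linear values are (whole reads + 0.5) times 1 step per library, 100% whole within 0.01, so reads were recovered; reads are not independent molecules. Groups came from sample titles. All 12256 genes were fitted with limma 3.58.1 (R 4.3.3; treatment only, mean-variance trend, two-sided, Benjamini-Hochberg, threshold 0.05). Lengths and GC came from GENCODE vM21 by symbol, for 73 of 75 members. Per-kilobase levels use the principal transcript. The fit was tested on simulated reads.

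The members and lists were chosen with earlier results of these data known. Named members were Uqcrq, Uqcrh and Sdhc, the smallest p and highest level per length in each complex, the largest positive changes with at least 10 reads everywhere, the c subunit genes and isoform sets. A member is not reported here by name, though it is in every count.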

Additional observations from a re-analysis of the deposited data

Results flagged for a closer look

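A library was listed here when it lay far from the other 3 of its group by Dixon's criterion for 4 values at the 95% level. The criterion was applied to 80 groups, and chance alone lists about 1 in 20. Cox5b in NPC B was at 5.10, beside 4.44 to 4.54 in NPC A, C and D, and Cox5a in the same library at 4.02, beside 3.55 to 3.63. Atp5g1 in NPC C was at 3.92, beside 3.57 to 3.62 in NPC A, B and D. Cox7a2 in NPC D was at 5.59, beside 5.85 to 5.91 in NPC A to C. Uqcrb in PBS 4 was at 4.43, beside 3.73 to 3.77 in PBS 1 to 3. Mitochondrially encoded transcripts took 18.6% of the reads in PBS 3, beside 33.8 to 34.8% in PBS 1, 2 and 4.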

How the results depend on the processing

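No alternative called a gene at an adjusted p under 0.05 (21 alternatives, limma throughout), and the members' median stayed between -0.26 and -0.16, with 62 to 71 members lower. The number of members lower at an unadjusted p under 0.05, 24 as reported, was 11 with mitochondrially encoded reads left out of the totals. With 1 library left out it was 11 to 29 (11 without NPC D, 15 without PBS 1, 15 without PBS 2). Among all genes 652 were lower at that threshold as reported, 1049 with library weights and 357 with mitochondrially encoded reads left out. With 1 library left out 373 to 943 were (lowest without PBS 2). Genes in either direction numbered 1387 as reported, 2139 with library weights and 915 with mitochondrially encoded reads left out. They numbered 792 to 1846 with 1 library left out. The complex V median, -0.17 as reported, was -0.27 with library weights, -0.26 with the GC and length correction, -0.26 in the genes of known length and GC uncorrected and -0.26 without Atp5s and Atp5sl. The complex III median, -0.18, was -0.10 without NPC D and -0.10 thinned to equal depth, and that of complex IV, -0.28, was -0.17 without NPC D. The causes were not tested.

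Of 23 named members 19 kept their direction throughout. Several of these moved by over 1.5 times: Ndufa1 was at -0.22 without NPC D and -0.56 without NPC B, Atp5k at -0.29 without NPC D, Uqcrfs1 at -0.12 and Sdhc at -0.24 thinned to equal depth, and Cox4i1 at -0.22 with the GC and length correction. The small changes of Atp5g1 and Cox5a ranged over -0.22 to -0.03 and -0.21 to -0.04. With library weights Uqcrb was at -0.023 and Ndufs1 at -0.019, and with the GC and length correction they were at -0.033 and -0.023. Ndufs1 was at -0.034 without NPC A and PBS 1 together. With 1 library left out, Uqcrb lay between -0.12 (without NPC B) and 0.25, Ndufs1 between -0.012 (without NPC A) and 0.16, Atp5b between -0.17 and 0.010 (without PBS 4), and Atp5d between -0.063 (without NPC C) and 0.18, below 0 also without NPC B, NPC D, PBS 1 or PBS 3. The comparison limited to genes with known length and GC was chosen after seeing the data. The 2 planned count-model tests were not run, as the deposited unit is log2. No paired analysis was possible because the NPC libraries are lettered and the PBS libraries numbered, so the groups share no replicate number. Depth limited genes such as Atp5s and Atp5l, with under 10 reads in a library.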
